A study of Mus musculus with 15 samples.

Results

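The genes described here belong to the ADP-ribosyltransferase family of PARPs and tankyrases and were measured by RNA sequencing in hematopoietic stem cells (HSC) of the mouse. Enzyme activity was not measured. They are the 10 genes of a named list (Parp1, Parp2, Parp3, Parp4, Parp8, Parp9, Parp10, Parp14, Tnks and Tnks2), and all 10 were present among the 16154 genes of the count table. They were taken by name and not by a cut on their level or change. The list was, however, chosen with earlier results of these data known.

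HSC were sorted from the bone marrow of female C57BL/6 mice as lineage-negative cells carrying Sca-1, cKit and CD150 but not CD48. There were 5 young mice (6 to 12 weeks), 5 aged mice (20 to 24 months) and 5 aged mice (20 to 24 months) given nicotinamide riboside (NR), a vitamin B3 form from which cells make NAD, in drinking water at 3 mg/ml for 2 months. Per the study's methods, each library came from 20000 to 25000 cells of 1 mouse. The libraries were 3′ biased, and the values are counts of reads left after removal of duplicated molecular identifiers (UMI). No young mice given NR were among the libraries, so an effect of NR could be read in aged HSC only.

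ADP-ribosyltransferases split NAD and attach its ADP-ribose part to proteins or nucleic acids, either as a single unit or as a chain. PARP1 and PARP2 bind broken DNA and build chains that bring in repair proteins. Tankyrases build chains on partners such as axin, and most other members add single units. In blood formation the family is known for DNA repair in stem cells, where Parp2 is needed after irradiation, and for the interferon response, in which PARP9 and PARP14 take part.

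Total counts per library ranged from 764119 in aged replicate 2 to 13318989 in aged replicate 3, and the 10 genes together received from 433 counts in the first to 7269 in the second. Depth ran with group. Apart from aged replicate 2, aged libraries had 5511642 counts or more, against 2122221 to 3631395 in young and 2486399 to 3595384 in NR libraries. Fits on counts thinned to the smallest library are given below as an alternative. Counts of 9 of the 10 genes were 10 or more in every library, and Parp8 had 9 counts in aged replicate 2. All 8 HSC marker genes examined had more than 3 counts in every library. The share of all counts that fell on 24 marker genes of mature blood cells was 0.773 to 1.09% in aged HSC, 0.0498 to 0.131% after NR and 0.0733 to 0.419% in young HSC other than young replicate 3, which held 1.13%. This share was higher in aged than in young HSC by 0.543 percentage points (two-sided exact permutation test, p = 0.0476), which passed in 1 of 10 tests with 1 library left out (that without young replicate 3) and came to 0.206 points without haemoglobin genes (p = 0.262, same exact test). It was lower after NR than without, with a difference of -0.852 points (two-sided exact permutation test, p = 0.00794, which is the lowest value 5 against 5 libraries can give). Levels are given as CPM, counts scaled to a common library size by edgeR's TMM method, in the order of replicates 1 to 5. By library totals, Y-linked transcripts reached 104 and 108 CPM in young replicates 1 and 5, whose label is female, and 0.757 to 3.16 CPM in all other libraries. Xist, a transcript of female cells, stood at 436 and 482 CPM in young replicates 1 and 5 and at 296 to 919 CPM in the others. Young replicates 1 and 5 thus held both kinds of transcript, and whether each came from a single mouse was not tested. On the TMM scale, 3 counts, taken as the limit of detection, correspond to 0.254 to 3.89 CPM. Because bulk RNA was measured, fewer cells with a transcript and less of it per cell cannot be told apart.

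With age, Parp9 rose and Parp8 fell, and both changes passed an adjusted p of 0.05 (quasi-likelihood test of edgeR, Benjamini-Hochberg adjustment across the whole table). These 2 of 10 genes compare with 19.3% of all 16154 genes called between aged and young HSC, of which 9.68% were higher and 9.63% lower. At an unadjusted p under 0.05 the counts were 5 of the 10 genes (Parp1, Parp2, Parp8, Parp9 and Tnks2) and 33.2% of all genes. The median log2 fold change of the 10 genes was -0.16, against -0.03 over all genes. Between NR-treated aged and aged HSC none of the 10 genes passed, against 8.07% of all genes, and 3 (Parp3, Parp9 and Parp10) had an unadjusted p under 0.05, against 25.1%. None passed in the likelihood ratio test of edgeR, in DESeq2 or in limma-voom either. Between NR-treated aged and young HSC again none passed, against 4.47% of all genes, and 3 (Parp8, Parp9 and Parp14) had an unadjusted p under 0.05, against 18.0%. No gene of the 10 had NR and young libraries that did not overlap there, against 4.74% of all genes. The likelihood ratio test, DESeq2 and limma-voom also called none there. The first and second comparisons share the aged libraries, the first and the last share the young ones, and the last 2 share the NR libraries, so the 3 sets of values are not independent.

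**Figure D1:**
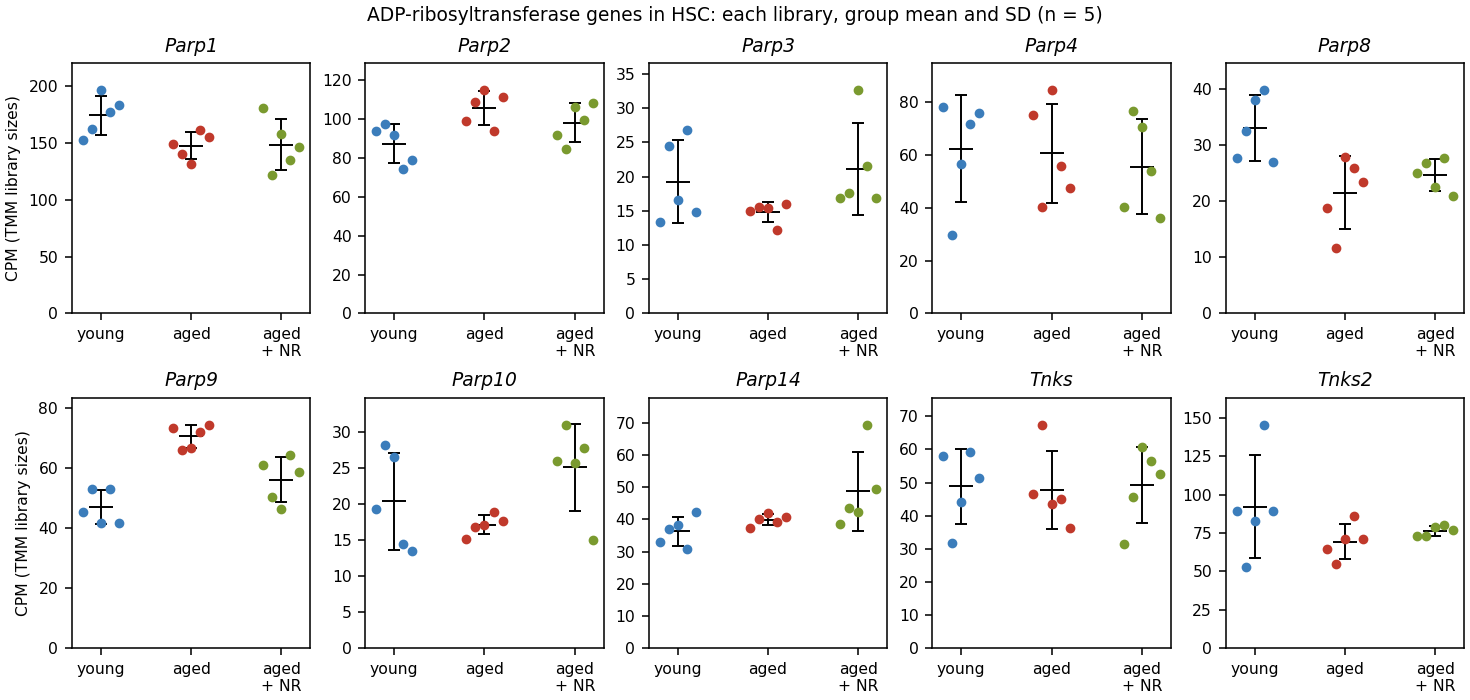
Level of each of the 10 genes in CPM (linear axes that start at 0) in young, aged and NR-treated aged HSC, with 1 point per library and black bars for the group mean and SD (n = 5). Parp9 is the only gene of the 10 whose aged libraries, 66.2 to 74.5 CPM, all lie above the young ones, and they also all lie above the NR libraries.

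Parp9 makes a complex with the ubiquitin ligase DTX3L and acts in the antiviral response. Its level was 45.3, 53.0, 41.8, 53.0 and 41.8 CPM in young HSC. In aged HSC it was 73.6, 66.2, 66.6, 72.0 and 74.5 CPM. After NR it was 61.0, 50.4, 46.3, 64.3 and 58.8 CPM. Every aged library was higher than every young library and every NR library, whereas young and NR libraries overlapped between 46.3 and 53.0 CPM. The means were 47.0 ± 5.69 CPM in young, 70.6 ± 3.92 CPM in aged and 56.2 ± 7.54 CPM in NR-treated aged HSC (SD, n = 5 each). Parp9 was thus 1.51-fold higher in aged than in young HSC (log2 fold change 0.59 ± 0.12 SE, adjusted p = 0.00185, edgeR). Among all genes, 12.4% had aged and young libraries that did not overlap, and Parp9 was the 1 such gene of the 10. Its log2 fold change remained between 0.55 and 0.64 when each of the 15 libraries was left out in turn, with the adjusted p of edgeR between 0.00141 and 0.00764. Without both young libraries that held Y-linked transcripts it was 0.52 (adjusted p = 0.0257, edgeR).

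Parp9 was lower after NR than in untreated aged HSC by a log2 fold change of -0.33 ± 0.12 (SE), and this did not pass the adjustment (adjusted p = 0.0813, edgeR's quasi-likelihood test). Its 95% interval ran from -0.58 to -0.09. NR and aged libraries did not overlap for Parp9 and, in the other direction, for Parp3, against 8.60% of all genes. Between NR-treated aged and young HSC the log2 fold change of Parp9 was 0.26 ± 0.12 (SE, adjusted p = 0.258, edgeR). In the order of its group means, young, NR-treated aged and aged, neither step to the neighbouring group passed the adjustment, and only the distance between the outer groups did. The share of counts on mature blood cell markers was highest in the same group as Parp9, and its part in these values was not tested.

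Parp9 lies on the plus strand of mouse chromosome 16 (GRCm38, 35938470 to 35972605) head to head with Dtx3l on the minus strand (35926511 to 35939151). The exons of both share 458 bases at their 5′ ends, and the strand setting used in counting is not given in the sources used here, so reads from these bases cannot be assigned to one of them. The 30 bases below hold 3 of the 7 annotated first bases of Parp9 transcripts (GENCODE M21), which are in capitals, and are shown because both genes are transcribed from this region. They are read from the RefSeq promoter of Dtx3l (GRCm38.p6), chr16:35939001-35939030, and are written 5′ to 3′ on the plus strand.
Parp9 starts: ccttgttctcCGcagagccgccgcctgtcT

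Dtx3l, which was looked at after its values were seen, had 226, 116, 244, 218 and 212 CPM in HSC of young mice. It had 215, 231, 365, 223 and 213 CPM in HSC of aged mice and 172, 343, 275, 275 and 145 CPM after NR. Its groups overlapped throughout, and its log2 fold changes of 0.30 ± 0.22 with age (SE, adjusted p = 0.374, edgeR) and -0.05 ± 0.22 after NR (SE, adjusted p = 0.918, edgeR) did not pass. The interval of the difference with age, from -0.17 to 0.76, includes the log2 fold change of Parp9.

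Parp14, a large member with macrodomains known as a cofactor of STAT6, lies at the same locus on the minus strand (chromosome 16, 35832874 to 35871544). Young HSC had 33.0, 37.0, 38.2, 30.8 and 42.3 CPM of it. There were 37.4, 40.2, 41.9, 39.1 and 40.8 CPM in aged and 38.7, 43.5, 42.4, 69.4 and 49.3 CPM in NR-treated aged HSC. The highest value was that of NR replicate 4, and the groups overlapped. Its log2 fold change was 0.14 ± 0.15 with age (SE, adjusted p = 0.57, edgeR), 0.28 ± 0.15 after NR (SE, adjusted p = 0.234, edgeR) and 0.42 ± 0.15 between NR-treated aged and young HSC (SE, adjusted p = 0.126, edgeR). Without NR replicate 4 the difference between NR-treated aged and aged HSC was 0.13, the lowest value over the libraries left out. Parp10, a mono-ADP-ribosyltransferase that interferon also induces, had 15.2 to 18.8 CPM in aged HSC and 25.7 to 31.0 CPM after NR apart from NR replicate 5, which had 14.98 CPM. In young HSC it spread from 13.5 to 28.1 CPM. Its log2 fold change after NR was 0.55 ± 0.21 (SE, adjusted p = 0.117, edgeR), and it passed the threshold without NR replicate 5 (0.69, adjusted p = 0.0442). With age it was -0.24 (adjusted p = 0.488). Exons of Parp10 (chromosome 15, 76231174 to 76243441, minus strand) share 205 bases with those of Plec on the same strand.

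Of 35 partners of PARP9 and PARP14 and genes of the interferon response, 15 rose with age (against 9.68% of all genes) and none fell, with a median log2 fold change of 0.34 against -0.03 over all genes. This list was chosen with earlier results of these data known, so its counts in each comparison are a description and not a test. The genes that rose included the interferon-induced GTPases Igtp (1.47 ± 0.19, SE, adjusted p = 2.3e-05, edgeR), Gbp2 (1.18, adjusted p = 7.7e-05) and Ifi47 (0.91, adjusted p = 0.000139). Rtp4, an interferon-induced chaperone of receptors, rose by 1.18 (adjusted p = 0.000484). After NR, 1 of the 35 genes was higher and 4 were lower than in untreated aged HSC, with a median of -0.06, and 8.07% of all genes were called in either direction. These 5 calls belong to 7 after NR over all related lists, of which the number was 3 in counts thinned to the smallest library, 1 without aged replicate 3, 3 without aged replicate 5 or NR replicate 3, and 4 without aged replicate 4 or NR replicate 1, 2 or 4. The 4 lower ones were Rtp4 (-0.70, adjusted p = 0.0354, edgeR), Ifit1 (-0.65, adjusted p = 0.047), Rsad2 (-0.51, adjusted p = 0.046) and Trim30a (-0.57, adjusted p = 0.0156). The higher one was Tap1, a peptide transporter of antigen presentation (0.56, adjusted p = 0.00808, edgeR). All of these but Rtp4 were picked for naming after their values were seen. Igtp differed between NR-treated and untreated aged HSC by -0.02 (adjusted p = 0.958), and Gbp2 and Ifi47 by -0.19 and -0.05. Against young HSC, 10 of the 35 genes were higher after NR and none was lower, against 4.47% of all genes called. The share of counts on mature blood cell markers was also higher in aged HSC (0.773 to 1.09%) than after NR (0.0498 to 0.131%), and its part in the interferon list was not tested.

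**Figure D2:**
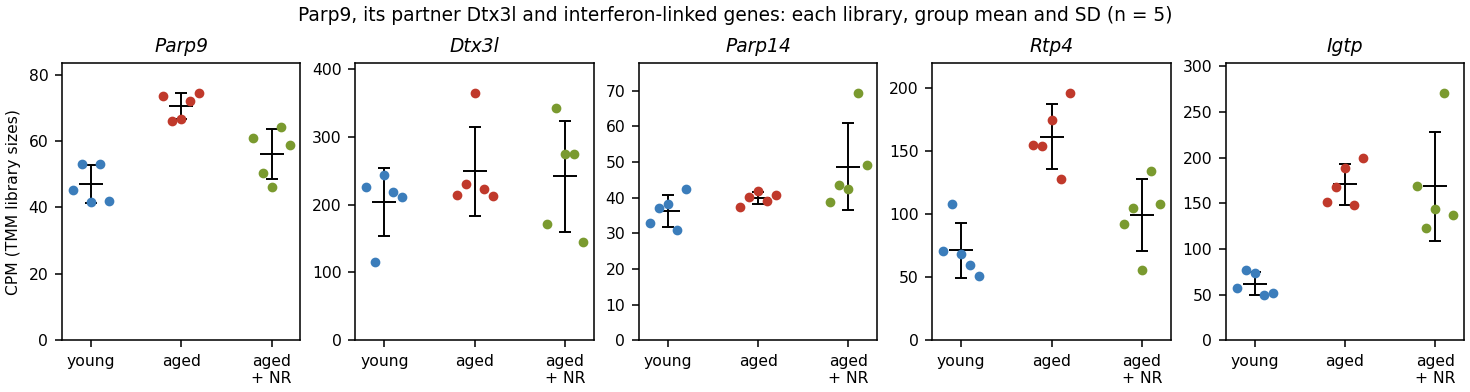
Levels in CPM (linear axes that start at 0) of Parp9, its partner Dtx3l, Parp14, Rtp4 and Igtp, with 1 point per library and black bars for the group mean and SD (n = 5). Aged libraries lie above young ones for Parp9, Rtp4 and Igtp, and NR libraries lie below aged ones for Parp9 alone of these 5 genes.

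For 6 of the 10 genes (Parp1, Parp2, Parp3, Parp4, Parp8 and Tnks2) the RefSeq promoter table (GRCm38.p6) held a window from 250 bases before to 50 bases after the start. Parp9, Parp10, Parp14 and Tnks were not matched. An interferon-stimulated response element, searched on both strands as 2 GAAA words that stand 2 bases apart, was found in 1131 of 32851 promoters (3.44%), and among the 6 genes in that of Parp4 alone, where 2 matches overlap. The STAT site TTCNNNGAA, searched in the same way, was found in 2726 promoters (8.3%) and in none of the 6. The stretch of the Parp4 promoter at chr14:56575459-56575494 (plus strand) is shown because it is the 1 match among these genes. The first match begins 150 bases before the start, and capitals mark both.
Parp4 promoter stretch: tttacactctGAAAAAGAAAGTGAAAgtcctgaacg

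Parp4, the PARP of the vault particle (chromosome 14, 56575619 to 56659794, plus strand), spread widely within groups, with a coefficient of variation of 30.9 to 32.3% in each. It ranged from 29.7 to 78.3 CPM in young, 40.2 to 84.7 CPM in aged and 36.2 to 76.9 CPM in NR-treated aged HSC. Its log2 fold change was -0.01 ± 0.25 with age (SE, adjusted p = 0.985, edgeR) and -0.17 ± 0.25 after NR (SE, adjusted p = 0.714, edgeR). The 95% interval with age ran from -0.53 to 0.51, and changes within it cannot be told from none. The sign of the change with age turned when single libraries were left out (-0.18 to 0.08) and in limma-voom (0.07). Mvp and Tep1, the other vault proteins, did not pass either, with log2 fold changes of 0.07 and -0.18 with age (adjusted p = 0.787 and 0.568) and of 0.29 and 0.17 after NR (adjusted p = 0.193 and 0.631).

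Parp8, a mono-ADP-ribosyltransferase whose function is little known, lies on chromosome 13 (117025537 down to 116854820, minus strand). Its level was 27.7, 32.6, 38.2, 39.9 and 27.0 CPM in young HSC. In aged HSC it was 18.8, 11.7, 27.9, 25.96 and 23.5 CPM, and after NR it was 25.1, 26.8, 22.6, 27.8 and 20.97 CPM. Aged replicates 1 and 2 had the lowest values, and aged and young libraries overlapped narrowly, between 27.0 and 27.9 CPM. The means were 33.1 ± 5.89 CPM in young, 21.6 ± 6.49 CPM in aged and 24.7 ± 2.86 CPM in NR-treated aged HSC (SD, n = 5 each). Parp8 was 1.45-fold lower in aged than in young HSC (log2 fold change -0.54 ± 0.18 SE, adjusted p = 0.0393, edgeR's quasi-likelihood test). It passed in 10 of 15 fits with 1 library left out, with log2 fold changes from -0.65 to -0.45 and adjusted p from 0.0308 to 0.109. It was lost without young replicate 3 (adjusted p = 0.0835), young replicate 4 (0.109), aged replicate 1 (0.089), aged replicate 2 (0.0608) or aged replicate 5 (0.065). After NR the log2 fold change against untreated aged HSC was 0.12 ± 0.18 (SE, adjusted p = 0.714, edgeR), with a 95% interval from -0.25 to 0.49. Against young HSC it was -0.42 ± 0.18 (SE, adjusted p = 0.217, edgeR). Neither NR comparison passed, and the level after NR was therefore not told from either of the other groups.

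The promoter of Parp8, the gene of the 10 that fell with age, is shown from 250 bases before to 20 bases after its RefSeq start (GRCm38.p6, chr13:117025512-117025781, minus strand, written 5′ to 3′). Capitals mark the bases from that start on. GENCODE M21 places the start of the gene further upstream, at 117025537, so its first bases are in lower case here. In the whole 300-base window 72.3% of bases were G or C, against a median of 52.7% over all promoters of the table and 56.7 to 62.0% in the other 5 genes matched.
Parp8 promoter: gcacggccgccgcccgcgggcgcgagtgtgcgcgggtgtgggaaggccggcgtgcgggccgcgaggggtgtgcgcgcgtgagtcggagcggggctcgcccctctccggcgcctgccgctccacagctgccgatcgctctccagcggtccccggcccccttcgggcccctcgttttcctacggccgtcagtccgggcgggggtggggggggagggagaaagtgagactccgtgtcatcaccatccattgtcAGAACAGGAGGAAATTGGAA

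**Figure D3:**
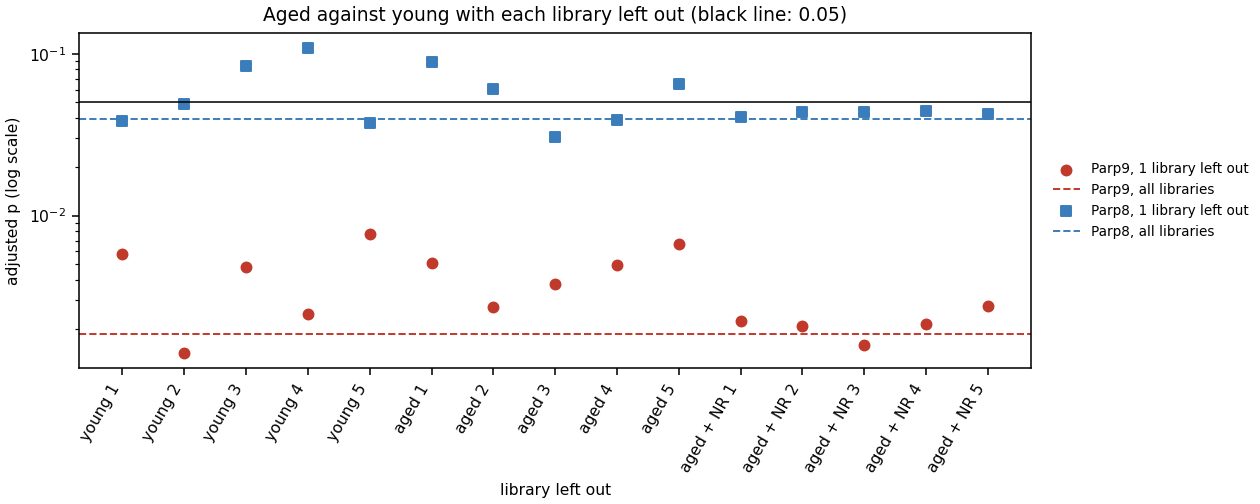
Adjusted p of edgeR's quasi-likelihood test (log axis) for Parp9 and Parp8 between aged and young HSC with each of the 15 libraries left out in turn. Dashed lines give the value with all libraries and the black line the threshold of 0.05. Parp9 stays at or under 0.00764, while Parp8 moves over the threshold for 5 libraries.

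Parp1, Parp2 and Parp3, the members that act at DNA breaks, did not pass in any of the 3 comparisons. Parp1 (chromosome 1, 180568924 to 180601254, plus strand) had 152, 162, 196, 177 and 183 CPM in HSC of young mice. It had 149, 140.1, 131, 161 and 155 CPM in aged and 181, 122, 158, 135 and 146 CPM in NR-treated aged HSC. Its aged and NR values were on average lower than the young ones, with overlap. The log2 fold change was -0.24 ± 0.11 with age (SE, adjusted p = 0.148, edgeR) and 0.01 ± 0.11 after NR (SE, adjusted p = 0.982, edgeR). The 95% interval of the latter ran from -0.23 to 0.24. Parp2 (chromosome 14, 50807841 to 50821301, plus strand) stood in the opposite order, with 93.7, 97.7, 91.6, 74.4 and 79.0 CPM in HSC of young mice. There were 99.0, 109, 115, 94.0 and 111 CPM in aged and 91.8, 84.4, 106, 99.4 and 108 CPM in NR-treated aged HSC. Young and aged libraries overlapped between 94.0 and 97.7 CPM. Parp2 had a log2 fold change of 0.28 ± 0.11 with age (SE, adjusted p = 0.081, edgeR) and -0.11 ± 0.11 after NR (SE, adjusted p = 0.568, edgeR). Without young replicate 2, its highest young library, the difference with age was 0.32 and passed (adjusted p = 0.0497, edgeR).

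Parp3 (chromosome 9, 106470322 to 106476949, minus strand) had 12.3 to 16.1 CPM in aged HSC and 16.9, 17.6, 32.7, 21.6 and 16.9 CPM after NR. All NR libraries thus lay above all aged ones, though the gap between the nearest was under 1 CPM and young HSC, with 13.3 to 26.8 CPM, spanned most of both. The log2 fold change after NR was 0.50 ± 0.22 (SE, adjusted p = 0.159, edgeR), and it ranged from 0.30 to 0.58 with each library left out. With age it was -0.37 ± 0.22 (SE, adjusted p = 0.254, edgeR).

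Of 11 partners of PARP1 and PARP2 in strand break repair, 1 fell with age, against 9.63% of all genes, and none rose (median log2 fold change -0.09). None passed after NR, against 8.07% of all genes (median 0.00). The gene that fell was Timeless, which encodes a protein of the replication fork that binds PARP1. Its level went from 47.1 ± 7.49 to 27.2 ± 5.47 CPM (SD, n = 5 each) with libraries that did not overlap, against 12.4% of all genes (log2 fold change -0.77 ± 0.21 SE, adjusted p = 0.0173, edgeR). The scaffold protein gene Xrcc1 had a log2 fold change with age of -0.09 (adjusted p = 0.663) and the end-processing enzyme gene Aptx one of 0.36 (adjusted p = 0.239). Of 7 genes for the removal of ADP-ribose, Nudt16 and Oard1 rose with age (0.57 and 0.45, adjusted p = 0.00354 and 0.0152, edgeR), and Parg fell. Over all genes, 19.3% were called with age in either direction. Parg, the main enzyme that takes chains apart, went from 29.3 ± 9.33 CPM in young HSC to 17.6 ± 3.51 CPM in HSC of aged mice (SD, n = 5 each, log2 fold change -0.70 ± 0.22 SE, adjusted p = 0.0323, edgeR). After NR none of the 7 passed, against 8.07% of all genes, and Parg differed from untreated aged HSC by -0.03 (adjusted p = 0.95, edgeR, 95% interval -0.50 to 0.44).

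The tankyrases Tnks (chromosome 8, 34826460 to 34965690, minus strand) and Tnks2 (chromosome 19, 36834232 to 36893477, plus strand) did not pass in any comparison. Tnks ranged from 31.7 to 59.1 CPM in young, 36.4 to 67.5 CPM in aged and 31.4 to 60.7 CPM in NR-treated aged HSC, and its log2 fold changes were -0.08 ± 0.19 with age (SE, adjusted p = 0.807, edgeR) and 0.09 ± 0.19 after NR (SE, adjusted p = 0.808, edgeR). Tnks2 had 89.5, 53.0, 82.6, 145 and 89.5 CPM in HSC of young mice. It had 64.3, 54.5, 71.1, 85.9 and 71.3 CPM in aged and 72.9, 72.7, 78.9, 80.4 and 76.8 CPM in NR-treated aged HSC. Young libraries held both the highest and the lowest value, so that the SD fell from 33.5 CPM in young to 11.5 CPM in aged and 3.47 CPM in NR-treated aged HSC, a difference in spread that was not tested. The log2 fold change of Tnks2 with age was -0.39 ± 0.18 (SE, adjusted p = 0.137, edgeR). Without young replicate 2, its lowest young library, it was -0.53 (adjusted p = 0.0179). After NR it was 0.12 ± 0.18 (SE, adjusted p = 0.727, edgeR).

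Of 10 genes listed as tankyrase substrates and partners, 2 rose with age, against 9.68% of all genes, and none fell, against 9.63% (median -0.04). None passed after NR, against 8.07% of all genes (median -0.02). Terf1, which encodes the telomere protein TRF1, rose (log2 fold change 0.59 ± 0.12 SE, adjusted p = 0.00176, edgeR). Whether tankyrases act on TRF1 in the mouse was not tested. Amotl2, an angiomotin, rose from 6.60 to 23.6 CPM (1.80 ± 0.24 SE, adjusted p = 4.2e-05, edgeR). Amotl2 was also higher in NR-treated aged than in young HSC (1.46, adjusted p = 0.001). Axin1, a scaffold of the WNT pathway that tankyrases mark for breakdown, had aged libraries that lay below all young ones and below all NR ones. Over all genes, 12.4% had aged and young libraries without overlap and 8.60% had NR and aged ones without overlap. Neither difference of Axin1 passed (-0.42 with age, adjusted p = 0.0604, and 0.47 after NR, adjusted p = 0.0652, edgeR).

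**Figure D4:**
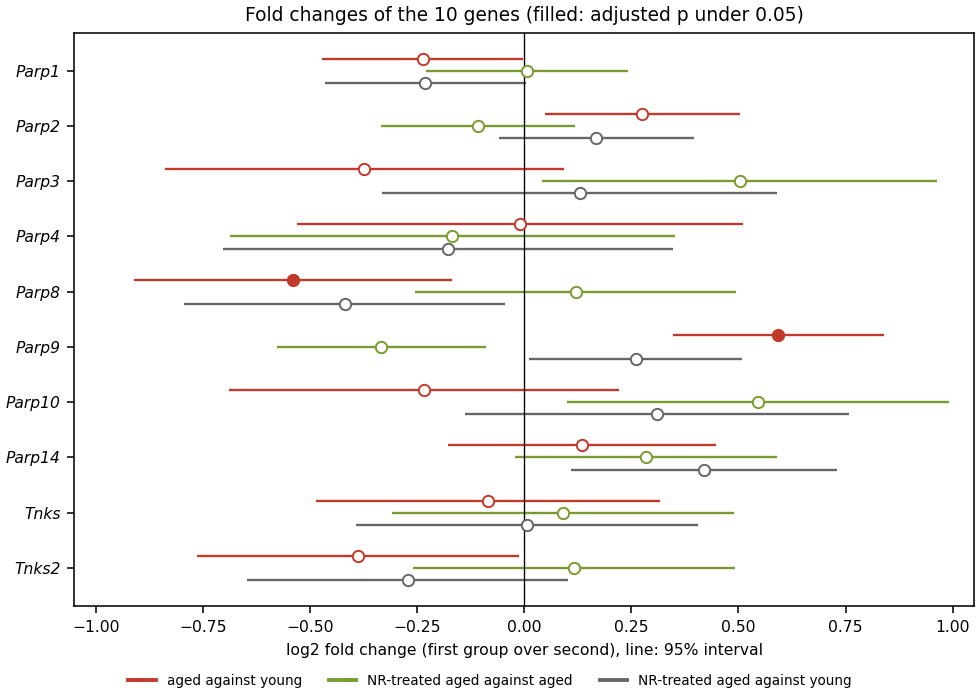
Log2 fold changes of the 10 genes in the 3 comparisons with 95% intervals (lines), filled where the adjusted p is under 0.05. Parp9 and Parp8 between aged and young HSC are the 2 filled points, at 0.59 and -0.54, and no interval reaches a change of 2-fold.

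The intervals set how large a change these libraries could have missed. All 10 genes had 95% intervals within a 2-fold change in each of the 3 comparisons, with bounds from -0.91 (Parp8) to 0.84 (Parp9) on the log2 scale with age and from -0.69 (Parp4) to 0.99 (Parp10) after NR. Intervals within a 1.5-fold change were reached by 5 genes with age (Parp1, Parp2, Parp4, Parp14 and Tnks) and by 6 after NR (Parp1, Parp2, Parp8, Parp9, Tnks and Tnks2). In simulated counts, 200 random genes with a mean of 5 CPM or more were changed 2-fold between aged and young HSC. All others were left unchanged. There edgeR recovered 128 of the 200 (64%). In the real counts 19.3% of all genes were called, so this share is not the power for the 10 genes. Changes smaller than 2-fold could go unseen.

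Among 6 other genes of the PARP family measured, Tiparp fell with age, against 9.63% of all genes, and the other 5 did not pass. Tiparp, a mono-ADP-ribosyltransferase induced through the aryl hydrocarbon receptor, had 61.4, 150.3, 78.6, 74.0 and 71.2 CPM in HSC of young mice. It had 45.8, 20.8, 33.4, 37.0 and 42.2 CPM in aged and 31.6, 52.5, 39.3, 30.0 and 42.5 CPM in NR-treated aged HSC. All aged and all NR libraries of Tiparp lay below all young ones (against 12.4% and 4.74% of all genes without overlap). The log2 fold change was -1.22 ± 0.22 with age (SE, adjusted p = 0.000902, edgeR), -1.15 between NR-treated aged and young HSC (adjusted p = 0.00395) and 0.08 between NR-treated and untreated aged HSC (adjusted p = 0.871). Parp6 was higher after NR than in untreated aged HSC with libraries that did not overlap (against 8.60% of all genes), but missed the threshold (0.47 ± 0.15 SE, adjusted p = 0.0502, edgeR). Parp16 and Parp12 had log2 fold changes of 0.19 and -0.06 with age (adjusted p = 0.756 and 0.82).

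Enzymes outside the family that also split NAD gave 1 gene higher and 1 lower of 9 in each of the comparisons with age and with NR. Over all genes, 19.3% were called with age and 8.07% after NR, in either direction. The 2 enzymes called after NR complete the 7 calls whose number fell to between 1 and 4 without some single libraries. Cd38, an NAD hydrolase of the cell surface, rose with age from 13.7 ± 2.54 to 51.0 ± 4.66 CPM (SD, n = 5 each, log2 fold change 1.88 ± 0.31 SE, adjusted p = 0.000325, edgeR) and was lower after NR (-1.13, adjusted p = 0.0247, edgeR). The deacetylase gene Sirt1 fell with age (-0.63, adjusted p = 0.0361, edgeR), and the mitochondrial Sirt3 was higher after NR (0.57, adjusted p = 0.034, edgeR). Sirt2 did not pass in either (0.24 and -0.10, adjusted p = 0.238 and 0.705).

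**Figure D5:**
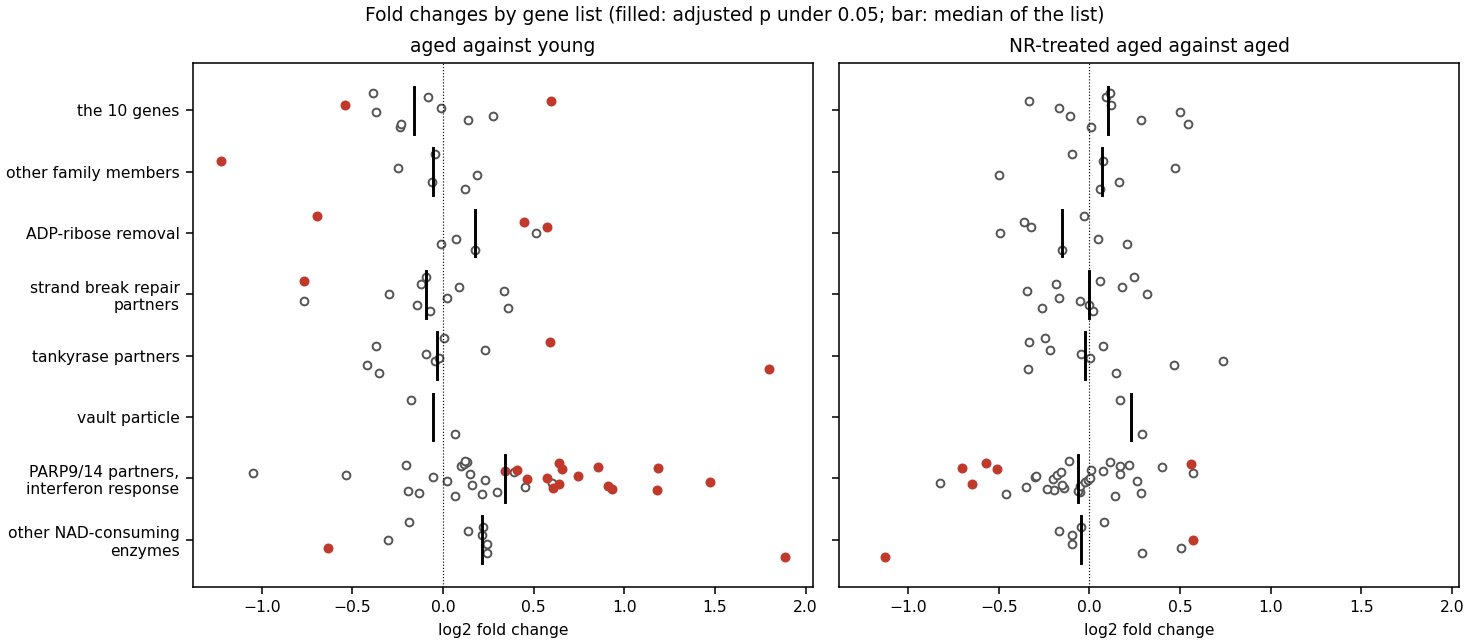
Log2 fold changes of the 10 genes and of 7 related gene lists between aged and young HSC (left) and between NR-treated aged and aged HSC (right), with 1 point per gene, filled where the adjusted p is under 0.05, and a bar at each median. The interferon list has 15 filled points on the left, all above 0, and 5 on the right, of which 4 lie below 0.

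The genes whose log2 CPM over the 15 libraries was most like that of each member were named among 8443 genes with 10 counts or more in every library, as a description over libraries that share groups and depth. For Parp9 they were Ggct (r = 0.92), Asns (r = 0.92) and Psme2 (r = 0.91), the last an interferon-induced subunit of a proteasome activator. Those most like Parp1 included Timeless (r = 0.90) and Slfn9 (r = 0.89). Those most like Parp2 included AW112010 (r = 0.88) and Ndufs7 (r = 0.86), a subunit of respiratory complex I. Parp4 was nearest to Cltc (r = 0.95), Cdkn1b (r = 0.94) and Rsl24d1 (r = 0.91), Tnks2 among others to Utp20 (r = 0.90) and Ube3a (r = 0.89), and Tnks to Bod1l (r = 0.86), Pou2f2 (r = 0.79) and Sgsm2 (r = 0.77). Parp10 was nearest to Arrdc1 (r = 0.92), Scarf1 (r = 0.76) and Hdac5 (r = 0.75). Parp3 (Gm10800 and Gm10717 among them, r = 0.82 and 0.79) and Parp14 (Gm28417, Nsf and Cdk5rap3, r from 0.75 to 0.78) had no gene in common with the 3 nearest by Spearman correlation. For Parp9, Parp4 and Tnks2 1 of the 3 was also among the nearest by Spearman correlation, and for the other 4 genes 2 were. Parp8 was not ranked, since it had 9 counts in aged replicate 2.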

How the data were processed

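Count data for 15 libraries were used. Per the study's methods, the authors aligned reads to GRCm38 with STAR 2.4.2a, removed duplicated UMIs, counted reads on exons of GENCODE M15 with featureCounts and deposited raw counts for genes that exceeded 5 reads and 2 CPM in 2 or more samples. A 3′ biased count depends on the annotated transcript end, and the counting of multimapped reads and of strand is not given in the sources used here. Groups were taken from the sample titles.

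All genes were fitted in edgeR 4.0.16 (R 4.3.3) with TMM normalisation and no factor but the group. Contrasts were tested by quasi-likelihood, and p-values of all 16154 genes were adjusted together by Benjamini-Hochberg (threshold 0.05). The study used the likelihood ratio test, which was run as an alternative with DESeq2 1.42.0, limma 3.58.1 (voom), fits of only the groups compared, other library sizes, a count filter, thinned counts, a replicate block, a stricter threshold and fits without single libraries or without both young libraries with Y-linked transcripts. SE is the log2 fold change over the root of F, and intervals use the t distribution with the fit's degrees of freedom. The test was checked on simulated counts for 16154 genes with 200 changed. Replicate numbers were not treated as pairs. Every pair of libraries in a group differed beyond sampling noise (lowest chi-square per degree of freedom 3.21). Positions and gene overlaps are from GENCODE M21 on GRCm38. Permutation tests and promoter searches ran in Python 3.11.15 with SciPy 1.17.1, NumPy 2.4.6 and pandas 2.3.3.

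The genes named are the 10 members, at most 4 genes of each related list with the smallest p over the comparisons with age and with NR, and the 3 genes nearest to each member in Pearson correlation of log2 CPM (prior count 10), apart from those stated; a few genes chosen this way are left out here. The members and lists were chosen with earlier results of these data known. Counting error alone is covered by the limit of 3 counts. By the study's methods replicates are individual mice, which was not tested for young replicates 1 and 5 with their Y-linked transcripts.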

Additional observations from a re-analysis of the deposited data

Results flagged for a closer look

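In 108 groups of 5 libraries (36 genes in 3 groups), 8 had 1 library far from the other 4, where chance gives about 1 in 20. For the listed ADP-ribosyltransferases this was Parp3 in aged replicate 4, the lowest of its group at 12.3 CPM against 15.03 CPM for the next. Among related genes, Tiparp was highest in young replicate 2 (150.3 CPM, next 78.6), Gbp2 in NR replicate 4 (153 CPM, next 101) and Axin1 in young replicate 3 (44.0 CPM, next 32.3). Terf1 was lowest in NR replicate 1 (48.9 CPM, next 53.7) and Tep1 in young replicate 2 (15.3 CPM, next 25.0). Sirt1 in aged replicate 2 (7.78 CPM, next 19.2) rested on 6 counts and Amotl2 in young replicate 3 (3.14 CPM, next 6.67) on 7.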

How the results depend on the processing

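Of 777 values of single genes of the list under the alternatives, 737 kept their direction and side of the threshold, 24 turned direction, 8 newly passed and 8 no longer passed. The genes of the list called with age numbered 2, and 1 with only the 2 groups compared, 4 with library totals in place of TMM, 1 at an adjusted p under 0.01 and 1 to 4 with single libraries left out. After NR the number was 0, and 1 with library totals (Parp10, 0.69, adjusted p = 0.0479) and 0 to 1 with single libraries left out. Library totals moved the median of all genes from -0.03 to -0.16 with age and from 0.02 to 0.16 after NR, and the share of calls that were higher from 50.1 to 29.1% and from 48.1 to 78.4%. On that scale, whose values include the shift of all genes, Parp1 (-0.36, adjusted p = 0.027) and Tnks2 (-0.52, adjusted p = 0.0439) also passed with age. Parp8 was lost with only the 2 groups compared (adjusted p = 0.0641) and in counts thinned to the smallest library (adjusted p = 0.174), and Parp2 passed in the latter (0.41, adjusted p = 0.044). Parp1 also passed among genes with 10 counts in every library (-0.30, adjusted p = 0.0444), where Parp8 was not tested. The cause was not tested.

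Related genes called after NR numbered 7, and 11 in DESeq2, 11 in limma-voom, 3 in thinned counts, 1 at an adjusted p under 0.01 and 1 (without aged replicate 3) to 9 with single libraries left out. Between NR-treated aged and young HSC they numbered 12, and 7 at an adjusted p under 0.01, 7 without both young libraries with Y-linked transcripts and 7 (without young replicate 4 or 5 or NR replicate 4) to 17 with single libraries left out. The mature marker share differed with age by 0.206 points without haemoglobin genes and 0.360 without immunoglobulin and B cell genes, neither past 0.05, and by 0.467 to 0.731 with single libraries left out, where only the fit without young replicate 3 passed. NR against young, it was -0.185 without haemoglobin genes, no longer past 0.05.

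Direction turned for values near 0: Parp4 with age (0.0715 in limma-voom, 0.239 without the libraries with Y-linked transcripts, -0.18 to 0.0821 with single libraries left out), Tnks with age (0.0365 without the libraries with Y-linked transcripts), Parp1 after NR (-0.0035 in limma-voom, -0.0655 to 0.0701 with single libraries left out) and Parp2 after NR (0.0306 with library totals). NR against young, it turned for Parp3 (-0.12) and Parp4 (0.0718) without the libraries with Y-linked transcripts, for Tnks in limma-voom (-0.0204), and with single libraries left out for Parp3 (-0.0747 to 0.28) and Tnks (-0.11 to 0.14). With the replicate number as a replicate block, 2 genes of the list and 23 related genes passed with age. Deviations of libraries with the same number correlated by 0.00666 on average over 15 pairs (-0.252 to 0.137). No pairing of mice by number was seen in these values, which cannot show that none existed. The block changed no call of the 10 genes. Depth was lowest in aged replicate 2, with 764119 counts.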

Other observations

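Between the 10 genes, deviations from the group means over the 15 libraries gave Pearson correlations from -0.532 (Parp2 and Tnks2, permutation p = 0.0656) to 0.541 (Parp4 and Tnks2, permutation p = 0.104). Of 45 pairs, 0 had p under 0.05 by Pearson or by Spearman correlation (permutation within groups), and 0 passed the Benjamini-Hochberg adjustment.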
